A study of Mus musculus with 16 samples.

Results

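Lineage label-positive quiescent hepatic stellate cells (qHSCs) were compared with the label-negative qHSCs of the same animals, in 6 of the 16 samples of the series. Both groups came from uninjured WT1CreERT2;Ai14 mice of strain C57/Bl6, with 3 label-positive samples (rfp status Positive) and 3 label-negative samples (rfp status Negative). In these mice a tamoxifen-inducible Cre expressed from the WT1 locus switches on the red fluorescent reporter Ai14, and the pregnant dams received tamoxifen at E10.5. The label therefore marks cells, and the progeny of cells, in which WT1 was active at that time, and an unlabelled cell may also be one in which recombination did not occur. Cells were isolated from the liver by density centrifugation and sorted by flow cytometry on RFP, with 3 animals each giving both fractions. The sample labels give the animals as male, whereas the Methods describe female animals for this use of the line, and of 13 sex-linked genes only Kdm6a had a row (21.5 FPKM in label-negative and 13.3 FPKM in label-positive cells). The other samples of the series are activated stellate cells of injured animals and enter no comparison here.

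The deposited table holds 5716 named rows, each with 1 FPKM (fragments per kilobase of transcript and normalised to the mapped fragments of each library) for a whole group. All 5716 rows are compared, as the log2 of the label-positive over the label-negative FPKM, written below as the log2 ratio. These are the genes that the study called different, so every row differs by construction. A gene without a row is one for which no level is known here. There are no values for single samples, so no spread between animals, no test and no depth can be given, and every difference below is a description of 2 group values.

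Hepatic stellate cells lie in the space between hepatocytes and the sinusoids, store vitamin A as retinyl esters and become collagen-producing myofibroblasts after injury. The sinusoids are lined by fenestrated endothelial cells that clear macromolecules from the blood through scavenger receptors. Kupffer cells, the resident macrophages of the liver, sit within the same vessels, where T cells, NK cells and B cells also pass. Preparations enriched by density can hold any of these cells, and their marker genes are therefore described beside those of the stellate cell.

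Rows were divided almost evenly between the directions but differed in how far they went. Of the 5716 rows, 2883 (50.4%) had the higher FPKM in label-positive and 2833 (49.6%) in label-negative qHSCs. Among the 5584 rows above 0 in both groups, 2147 (38.4%) were at least 2-fold higher in label-positive and 2365 (42.4%) at least 2-fold higher in label-negative qHSCs. These shares are the background for the counts of gene lists below. They depend on the scale, and after subtraction of the median log2 ratio described at the end 505 and 2711 rows were past 2-fold. The log2 ratio of rows higher in label-positive cells lay in a narrow band, with a median of 1.31 and quartiles at 1.0 and 1.61, and 385 rows reached 2. Rows higher in label-negative cells spread more widely, with a median of -2.02 and quartiles at -3.04 and -1.27, and 1371 rows reached -2. At the far ends, 4 rows had a log2 ratio of at least 5 and 79 a log2 ratio of at most -5. The smallest absolute log2 ratio of any row was 0.55. In addition, 122 rows were listed at 0 in label-positive and 10 at 0 in label-negative qHSCs, and no fold is given for them. In RNA of sorted bulk samples, fewer cells of a type and less RNA per cell cannot be told apart.

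**Figure D1:**
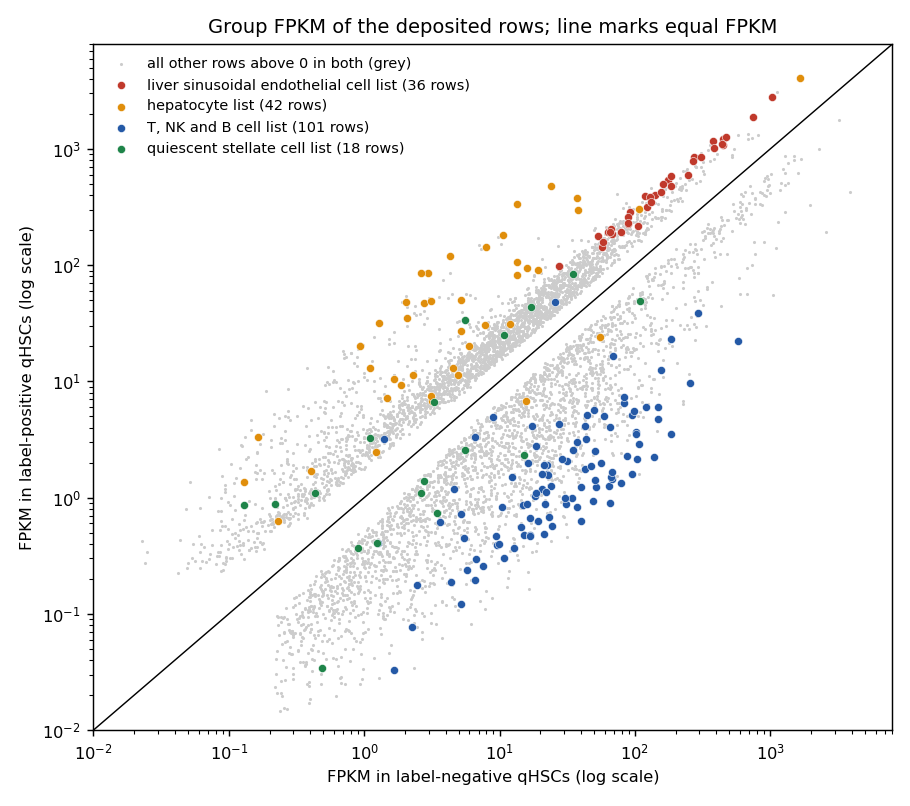
Group FPKM of each row in label-negative (x axis) and label-positive qHSCs (y axis), both on a log scale, for the 5584 rows above 0 in both groups. Coloured points are rows of the named lists, and the empty strip along the line of equal FPKM is where rows were not called by the study. The 36 sinusoidal endothelial rows lie in a tight band above the line, the hepatocyte rows scatter above it, the lymphocyte rows lie far below it with few exceptions, and the 18 stellate cell rows lie on both sides.

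The most abundant rows already separated the groups. In label-positive qHSCs the highest levels were those of Apoe, the apolipoprotein of remnant lipoproteins, at 4054 FPKM against 1647 in label-negative cells. Next came Igfbp7, a secreted binding protein of the insulin-like growth factors, at 3060 against 1114 FPKM, and Clec4g, a C-type lectin of the sinusoidal endothelium, at 2787 against 1023 FPKM. Fcgr2b, the inhibitory Fc receptor that takes up immune complexes in the sinusoids, reached 1901 against 750 FPKM. Eng, a co-receptor for BMP ligands on endothelium, reached 1262 against 470 FPKM. Serinc3, the immediate early gene Fos, Ifitm2 and the ferritin light chain Ftl1 followed with 1337, 1329, 1310 and 1249 FPKM in label-positive cells, each lower in label-negative cells. In label-negative qHSCs the first row was Tmsb4x, encoding the actin-sequestering peptide thymosin beta 4, at 3204 FPKM against 1774 in label-positive cells. Cd74, the invariant chain of MHC class II, was also among the leaders there at 1960 against 329 FPKM, a log2 ratio of -2.58. Apoe was among the leaders there too, and the other label-negative leaders were ribosomal protein genes such as Rps27 (2296 against 997 FPKM) and Rplp1 (1679 against 827 FPKM).

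Among genes that reached 10 FPKM in the higher group, the largest ratio was that of Sdr9c7, a dehydrogenase of the short-chain family, at 0.380 FPKM in label-negative against 12.9 in label-positive cells (log2 ratio 5.09). It was followed by genes of hepatocyte metabolism and secretion. Mup20, a major urinary protein, had a log2 ratio of 5.05, Arg1, the last enzyme of the urea cycle, 4.83, and Uox, urate oxidase, 4.79. The sulfotransferase Sult2a8 (4.72), the acute phase gene Saa2 (4.67), the carbonic anhydrase Car3 (4.65), the ornithine carbamoyltransferase Otc (4.63) and the fatty acid elongase Elovl3 (4.60) were close behind. Mup11 stood at 4.71, but major urinary protein genes are nearly identical copies and reads may be split among them. The smallest ratio was that of Nsg2, at 16.5 FPKM in label-negative against 0.163 in label-positive cells (log2 ratio -6.66). Lymphocyte genes took most of the other places. Pax5, the master regulator of B cell identity, was at 65.3 against 0.903 FPKM (-6.18). Ccr7, which guides naive lymphocytes and mature dendritic cells to lymph nodes, was at 138 against 2.22 FPKM (-5.95). The T cell factor Lef1 (-5.99), the IgM receptor Fcmr (-5.87), the low-affinity IgE receptor Fcer2a (-5.73), Sidt1 (-6.11), Dapl1 (-6.08) and the mast cell protease Mcpt4 (-5.84) were also among them.

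Genes that define the stellate cell went both ways and were mostly at low levels. Of 35 genes on the quiescent stellate cell list 18 had a row, 9 higher and 9 lower in label-positive cells, with a median log2 ratio of 0.03, or 1.04 among the rows with at least 1 FPKM in both groups. Lrat, which esterifies retinol, Reln, Des, Gfap, Hand2 and Lhx2, the usual defining markers, had no row, so their levels in either fraction are not known here. Ednrb, the endothelin B receptor, was at 5.58 FPKM in label-negative against 33.8 in label-positive cells (log2 ratio 2.60). Hgf, the hepatocyte growth factor that stellate cells supply to hepatocytes, was at 17.0 against 44.1 FPKM (1.37). The collectins Colec10 and Colec11 had log2 ratios of 2.74 and 2.0, but neither reached 1 FPKM. Prelp, a matrix proteoglycan, was the most abundant member that was higher in label-positive cells, at 84.0 against 35.2 FPKM. The members lower in label-positive cells included the receptors of platelet-derived growth factor. Pdgfrb, by which stellate cells are commonly recognised, was at 0.905 FPKM in label-negative against 0.370 in label-positive cells (-1.29). Pdgfra, a receptor also typical of fibroblasts, was at 3.47 against 0.743 FPKM (-2.22). Ngfr, the low-affinity neurotrophin receptor, had the smallest ratio of the list, -3.82, from 0.488 to 0.0344 FPKM. Dcn, a collagen-binding proteoglycan, was the most abundant member at 109 against 49.0 FPKM (-1.15). The mesenchymal factor Tcf21 (-1.59), the VIP receptor Vipr1 (-2.70), the globin Cygb (-1.28), the metalloreductase Steap4 (-1.10) and the extracellular dismutase Sod3 (-0.98) were also lower. Vipr1 and several other members are also expressed by leukocytes or by other mesenchymal cells. Of the 18 genes with a row 10 are also on another list. The direction of a single member, higher or lower, is therefore not specific to stellate cells.

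The stellate cell rows together summed to 215 FPKM in label-negative against 258 in label-positive cells. Sums cover only genes with a row, 18 of 35 on the stellate cell list and 36 of 39 on the sinusoidal endothelial list. They therefore leave out genes that were not called different, and they do not compare the amounts of the cell types. Several other lists had larger sums. The rows of the sinusoidal endothelial list summed to 7939 and 21756 FPKM, those of the hepatocyte list to 2103 and 7362, of which Apoe alone gave 1647 and 4054, and those of the Kupffer cell list to 764 and 1979. Label-negative cells carried the larger sums for T cells (1574 against 70.6 FPKM), NK cells and innate lymphocytes (1837 against 141 FPKM) and B cells (1926 against 141 FPKM). No row of these lists was listed at 0 in either group. The part that cells of these types have in the differences between the fractions was not tested.

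Genes of the vitamin A pathway were higher in label-positive cells in 14 of 16 rows, out of 30 genes listed, with a median log2 ratio of 1.16. The retinoic acid receptors parted from each other. Rarg (52.4 against 105 FPKM, label-negative first), Rarb (11.6 against 26.9) and the partner receptors Rxra (22.9 against 53.4) and Rxrg (0.692 against 2.16) were higher in label-positive cells, and Rara was lower (27.4 against 15.8). The enzymes that shape local retinoic acid included Dhrs3, which reduces retinal, at 114 against 233 FPKM, and Cyp26b1, which degrades retinoic acid, at 36.0 against 77.1 FPKM. Larger ratios belonged to Aldh1a1 (3.64), Aldh1a7 (3.58), and to the plasma carriers Rbp4 (3.18) and Ttr (2.57), which hepatocytes secrete. Aldh1a2, the retinal dehydrogenase of mesothelium and embryonic mesenchyme, was at 2.16 against 1.08 FPKM (-1.0).

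**Figure D2:**
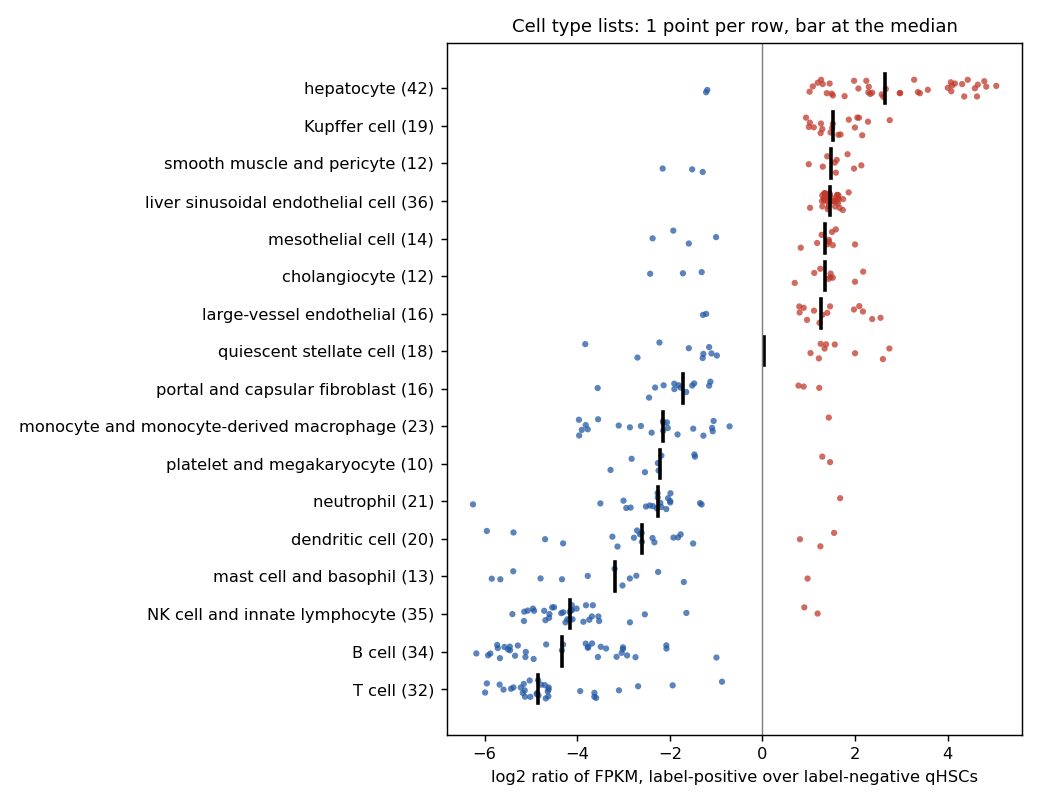
Log2 ratio of FPKM (x axis, label-positive over label-negative) for rows of the lists of cell type markers with at least 5 rows. Each point is 1 row, red where higher and blue where lower in label-positive cells, and the black bar is the list median. Points of the sinusoidal endothelial list span 1.03 to 1.86, whereas hepatocyte rows reach 5.05 and T cell rows lie between -5.99 and -0.87.

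Sinusoidal endothelial genes with a row were all higher in label-positive qHSCs, within a narrow range of log2 ratios. Of 39 genes listed 36 had a row, and all 36 were at least 2-fold higher. Their log2 ratios ran from 1.03 (Icam2) to 1.86 (Lyve1), with a median of 1.45 and quartiles at 1.37 and 1.62. Among all rows higher in label-positive cells the median was 1.31, with quartiles at 1.0 and 1.61. The scavenger receptors Stab1 (437 against 1093 FPKM, label-negative first), Stab2 (309 against 845) and Mrc1 (268 against 791) were among the abundant members. Lyve1, a receptor for hyaluronan, was at 27.4 against 99.4 FPKM. Ehd3, a membrane-shaping protein of endocytic tubules, stood at 377 against 1176 FPKM. Dnase1l3, which digests DNA in circulating particles, reached 1211 FPKM from 445. Bmp2, with Bmp6 a liver signal for hepcidin and so for iron balance, was at 176 against 538 FPKM. Together the 36 rows made up 2.46% of the summed FPKM of all rows in label-negative cells, against 8.95% in label-positive cells. As the rows of the table are a selection, these are shares of the table and not of the transcriptome.

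The 5′ flanks of members that stand for the main patterns are shown as sequence, 250 bases upstream of the start from RefSeq (build GRCm38.p6), with capitals for every match to the motifs searched on both strands. Clec4g, Apoe, Jchain and Prelp had the highest FPKM of the sinusoidal endothelial, hepatocyte, lymphocyte and stellate cell lists among members with an entry. Kdr, the main VEGF receptor, Alb, encoding albumin, and Cd3e, a chain of the T cell receptor complex, were added after their values were seen because Apoe and Jchain are also made by other cells. The windows lie at chr8:3720652-3720901 (Clec4g, minus strand), chr5:75978456-75978705 (Kdr, minus), chr7:19699189-19699438 (Apoe, minus), chr5:90460620-90460869 (Alb, plus), chr5:88527898-88528147 (Jchain, minus), chr9:45009612-45009861 (Cd3e, minus) and chr1:133921402-133921651 (Prelp, minus), each directly before the annotated start of its gene.
Clec4g: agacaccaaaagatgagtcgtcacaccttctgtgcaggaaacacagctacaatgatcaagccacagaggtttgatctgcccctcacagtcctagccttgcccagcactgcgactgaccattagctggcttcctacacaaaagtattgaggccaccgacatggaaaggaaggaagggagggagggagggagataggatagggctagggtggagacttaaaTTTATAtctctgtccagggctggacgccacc
Kdr: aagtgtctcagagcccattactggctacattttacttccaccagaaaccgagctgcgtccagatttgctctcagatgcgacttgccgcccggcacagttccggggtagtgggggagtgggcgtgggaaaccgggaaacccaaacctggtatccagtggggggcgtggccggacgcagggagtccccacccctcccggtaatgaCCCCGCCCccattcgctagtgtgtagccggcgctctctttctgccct
Apoe: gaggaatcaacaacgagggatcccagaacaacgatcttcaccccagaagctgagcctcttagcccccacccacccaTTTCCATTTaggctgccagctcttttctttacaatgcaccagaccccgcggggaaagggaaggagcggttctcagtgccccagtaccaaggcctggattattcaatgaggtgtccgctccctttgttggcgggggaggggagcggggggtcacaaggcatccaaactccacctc
Alb: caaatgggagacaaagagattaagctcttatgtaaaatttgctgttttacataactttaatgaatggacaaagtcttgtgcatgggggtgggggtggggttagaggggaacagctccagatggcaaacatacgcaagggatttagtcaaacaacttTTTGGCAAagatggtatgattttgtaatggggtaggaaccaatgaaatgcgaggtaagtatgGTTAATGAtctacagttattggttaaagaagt
Jchain: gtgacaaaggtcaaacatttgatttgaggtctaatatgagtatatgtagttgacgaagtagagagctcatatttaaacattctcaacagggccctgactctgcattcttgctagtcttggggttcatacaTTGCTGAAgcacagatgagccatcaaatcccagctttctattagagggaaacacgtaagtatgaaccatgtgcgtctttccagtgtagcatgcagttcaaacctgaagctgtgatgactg
Cd3e: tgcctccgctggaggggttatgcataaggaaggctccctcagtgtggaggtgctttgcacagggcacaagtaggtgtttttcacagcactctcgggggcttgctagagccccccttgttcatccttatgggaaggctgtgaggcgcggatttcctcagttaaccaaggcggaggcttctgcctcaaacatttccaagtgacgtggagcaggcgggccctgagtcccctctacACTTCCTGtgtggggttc
Prelp: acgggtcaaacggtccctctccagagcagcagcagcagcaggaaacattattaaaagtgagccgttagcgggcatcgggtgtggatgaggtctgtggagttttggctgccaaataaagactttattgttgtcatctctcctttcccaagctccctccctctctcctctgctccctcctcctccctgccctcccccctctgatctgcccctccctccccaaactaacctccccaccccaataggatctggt

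The capitals mark 1 match in most of these windows. The Clec4g flank holds the TATA box letters TATAAA on the reverse strand, with the first base at -31. The Kdr flank holds the SP/KLF letters GGGCGGGG on the reverse strand from -47 and has 16 CG dinucleotides, against 2 in that of Alb. The Alb flank holds an HNF1 match, GTTAATNA, from -32 and a CEBP match, TTGCNNAA, from -94, and that of Cd3e an ETS match, CNGGAAGT, from -18. The Apoe flank holds a match to the interferon-response letters TTTCNNTTT from -174 and that of Jchain a CEBP match from -120, while no searched motif lies in the Prelp window. The shares that follow are over windows that also hold the 50 bases after the start. The CEBP letters were present in 34.5% of 29 hepatocyte promoters against 10.8% of all 27025 promoters in the table. They were also in 33.3% of 18 neutrophil and 30.8% of 13 mast cell and basophil promoters, lists mostly lower in label-positive cells. In the hepatocyte promoters the HNF1 letters were present in 13.8%, against 2.63% of all. The HNF4 letters CAAAGTCCA were in 0 of the 29, against 0.477% of all. The RUNX letters TGTGGTT were present in 29.6% of 27 promoters of NK cell and innate lymphocyte genes, 30.8% of 13 of mast cell and basophil genes and 28.6% of 21 of monocyte genes, against 5.37% of all promoters. Other blood cell lists held smaller shares, such as 8.70% of 23 T cell, 12.5% of 24 B cell and 5.56% of 18 neutrophil promoters. The GATA letters AGATAA were present in 46.2% of 13 promoters of mast cell and basophil genes and 42.9% of 7 of platelet and megakaryocyte genes, against 11.4% of all. The SP/KLF letters were found in 31.8% of 1592 promoters of rows at least 2-fold higher in label-positive cells, in 26.8% of 1519 at least 2-fold higher in label-negative cells and in 17.8% of all. Median CG dinucleotides per 300 bases were 15 and 12 for these sets and 7 for all promoters. A match to a few letters is a description of the window and shows no binding.

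Transcription factors of endothelium had the direction of the surface genes in 24 of 26 rows, with a median log2 ratio of 1.42. Of the 42 genes listed 16 had no row. Gata4, which sets the sinusoidal type of endothelium in the liver, was at 68.3 FPKM in label-negative against 185 in label-positive cells, and Maf, another sinusoidal factor, at 157 against 423 FPKM. Erg, an ETS factor of all endothelium, had the largest ratio of the list at 2.20 (17.9 against 82.5 FPKM). Epas1, the hypoxia-inducible factor of endothelium, was at 61.3 against 212 FPKM, and the arterial and venous factors Sox17 and Nr2f2 were both higher, at 31.0 against 84.9 and 54.4 against 155 FPKM. Tal1 (1.32), Sox18 (1.56), Sox7 (1.63) and Meis2 (1.58) lay close to the list median. Prox1, a factor of lymphatic endothelium that hepatocytes also express, had a log2 ratio of 2.19 at levels of 0.617 and 2.81 FPKM. Foxp1 (95.6 against 32.4 FPKM) and Nfatc1 (33.8 against 16.0 FPKM), both also used by lymphocytes, were the exceptions. Large-vessel genes were higher in 14 of 16 rows, with a median log2 ratio of 1.26, below the 1.45 of the sinusoidal endothelial list. The adhesion molecules Sele (3.64 against 21.3 FPKM, log2 ratio 2.55), Vcam1 (21.5 against 96.8, 2.17) and Vwf (6.35 against 27.0, 2.09) had ratios above every sinusoidal endothelial gene, while Ly6c1 (10.03 against 4.12) and Bmx (2.28 against 0.983) were lower in label-positive cells.

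Receptors of vascular growth signals were higher in label-positive cells, and some of their ligands were not. In the VEGF and angiopoietin list 16 of 18 rows were higher, with a median log2 ratio of 1.52. The receptors Kdr (272 against 848 FPKM, label-negative first), Flt1 (53.7 against 179), Flt4 (92.8 against 287), Tek (89.1 against 258) and Tie1 (89.5 against 231) had log2 ratios between 1.37 and 1.73. The co-receptors Nrp1, Nrp2 and Plxnd1 had ratios of 1.62, 1.62 and 1.52. Among ligands, Vegfc (1.12 against 4.86 FPKM, 2.11), Angpt2 (1.92 against 7.61, 1.99) and Vegfb (14.1 against 29.7, 1.07) were higher in label-positive cells. Vegfa, the main ligand of Kdr, was at 28.3 in label-negative and 12.5 FPKM in label-positive cells (-1.18), and Pgf at 0.607 and 0.159 FPKM (-1.94).

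Notch and Wnt genes divided by member. Of 16 Notch rows 10 were higher in label-positive cells, or 8 after the centring described below. They held the endothelial receptor Notch4 (20.9 against 61.7 FPKM, label-negative first), the ligands Dll4 (17.6 against 74.7), Jag1 (2.59 against 6.48) and Dll1 (16.5 against 33.6), and the target Hes1 (68.5 against 173). Notch2 (20.3 against 3.49 FPKM) and Notch3 (0.756 against 0.170 FPKM), receptors of other cells, were lower, as were the fringe enzyme Lfng (52.1 against 24.3 FPKM) and Dtx1, a Notch-regulated gene of lymphocytes (36.9 against 1.59 FPKM, log2 ratio -4.54). Of 27 Wnt rows 17 were higher and 10 lower. The higher rows included Wnt2 (49.4 against 96.2 FPKM), Wnt9b (6.24 against 10.8) and Rspo3 (9.997 against 17.4), signals that liver endothelium sends to hepatocytes. Also among them were the receptors Fzd4 (24.5 against 69.1), Fzd6, Fzd8, Lrp5 and Lrp6, and the effector Ctnnb1 (121 against 345). The lower rows held the T cell factors Tcf7 (104 against 2.16 FPKM) and Lef1 (39.7 against 0.626 FPKM), the feedback inhibitors Axin2 (6.05 against 1.52), Rnf43 (5.83 against 0.794) and Znrf3 (4.79 against 0.351), and the ligands Wnt11 (5.95 against 0.832), Wnt10a and Wnt10b. Tcf7l1 and Tcf7l2, of the same factor family as Tcf7, had ratios of 1.54 and 1.07.

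**Figure D3:**
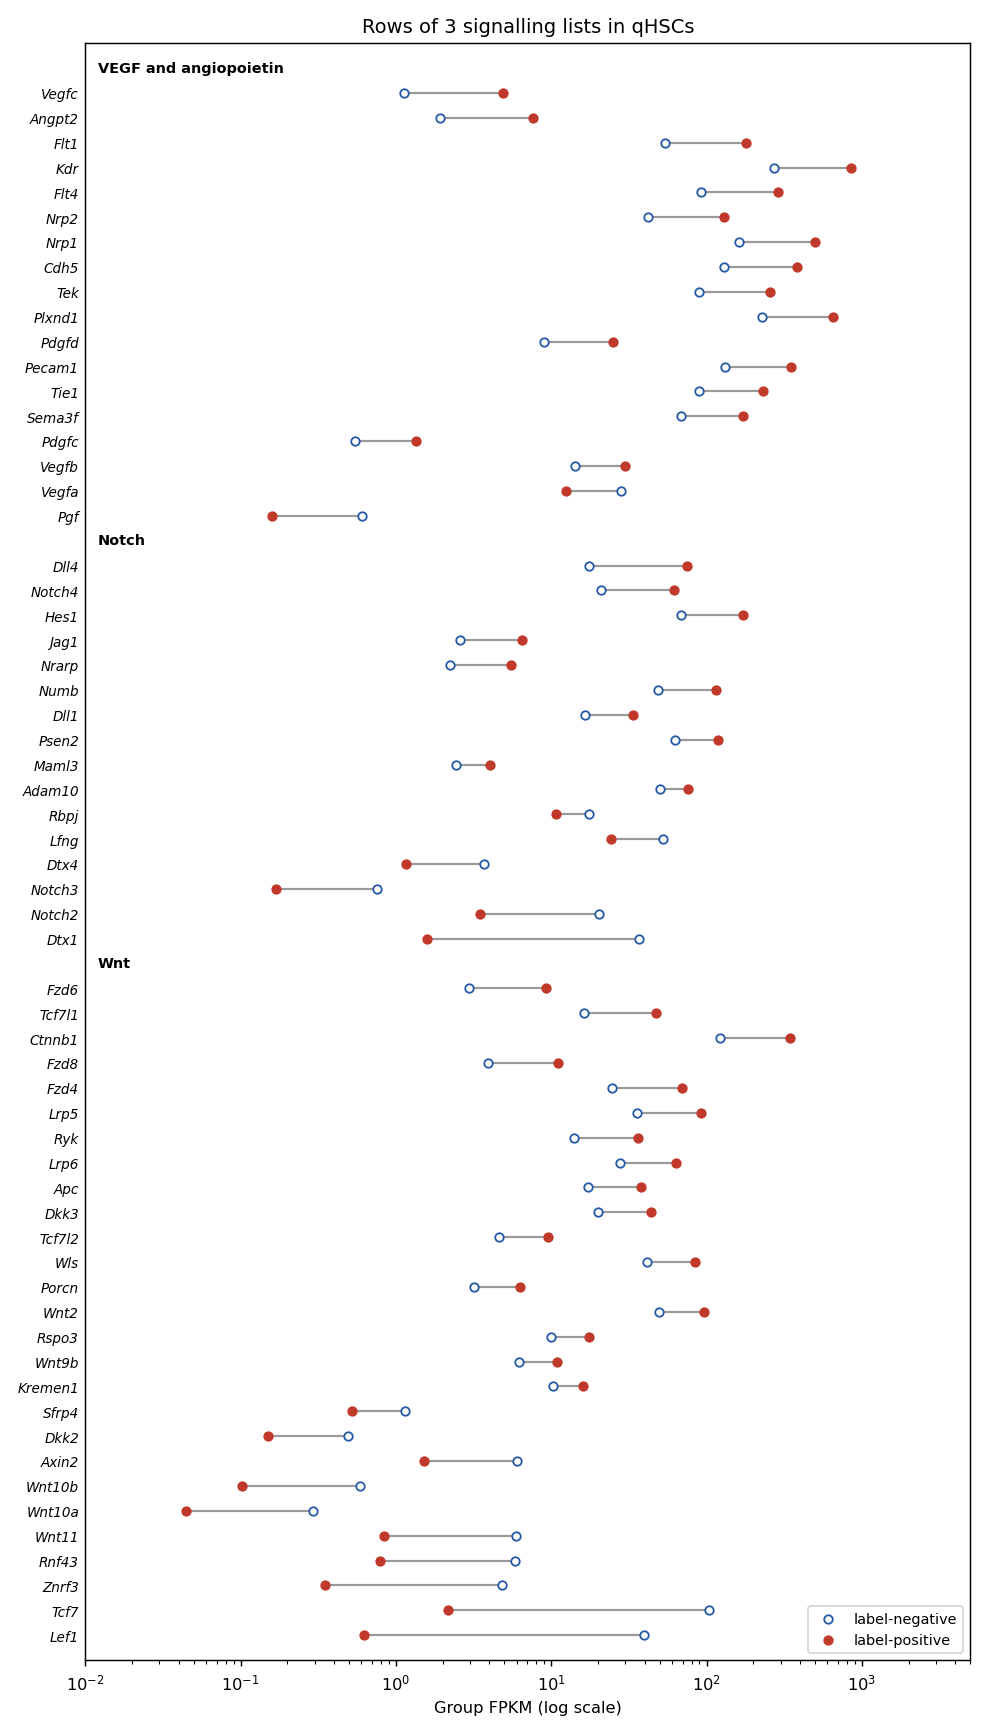
Group FPKM (x axis, log scale) of every row of the VEGF and angiopoietin, Notch and Wnt lists, 1 line per gene ordered by log2 ratio within a list. Open circles are label-negative and filled circles label-positive cells. Kdr lies at 272 and 848 FPKM, whereas Tcf7 and Lef1 run the other way, from 104 to 2.16 and from 39.7 to 0.626 FPKM.

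Of the 55 genes on the TGF-beta and BMP list 23 had a row, and 19 of these were higher in label-positive cells, with a median log2 ratio of 1.30. Smad2, Smad3, Smad4, Smad5, Bmpr1a, Bmpr1b and Bmp4 had no row. The ligands Bmp2 and Bmp6 were at 538 and 152 FPKM in label-positive cells, against 176 and 58.2 in label-negative cells. The receptors Bmpr2 (19.4 against 57.3 FPKM, label-negative first), Acvrl1 (19.0 against 43.3) and Acvr1 (12.2 against 32.9) and the target genes Smad6 (35.7 against 104), Id1 (29.7 against 69.7) and Id3 (220 against 447) followed. Ltbp4, which holds latent TGF-beta in the matrix, was at 49.7 against 203 FPKM. Hfe2, the hemojuvelin co-receptor, which hepatocytes express, had a log2 ratio of 3.78 at 0.0941 and 1.29 FPKM. Bmp7 (-2.38), Gdf10 (-2.28), the antagonist Fst (-1.22) and the protease Bmp1 (-1.10) were lower, each under 3 FPKM in both groups.

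Genes that set vascular tone were higher in label-positive cells in 19 of 27 rows. Nos3, the endothelial nitric oxide synthase, was at 15.7 FPKM in label-negative against 42.4 in label-positive cells, and Edn1, the ligand of Ednrb, at 1.57 and 3.98 FPKM. Receptors for adrenomedullin and natriuretic peptides, Calcrl with Ramp2 and Npr1, were at 299, 601 and 342 FPKM in label-positive cells, each with a log2 ratio between 1.28 and 1.47. Gucy1b3 and Gucy1a3, the subunits of soluble guanylate cyclase, by which stellate cells and pericytes respond to nitric oxide, had ratios of 2.09 and 1.40 but reached only 3.17 and 1.09 FPKM. Cbs and Cth, the hydrogen sulfide enzymes of hepatocytes, had ratios of 3.94 and 3.91. The prostaglandin E receptors Ptger4 (28.0 against 3.55 FPKM) and Ptger2 (2.37 against 0.375 FPKM) and Ptgs2 (24.5 against 6.47 FPKM) were lower. Ptgs1, the constitutive cyclooxygenase, differed from Ptgs2 in direction, at 81.8 against 183 FPKM. Genes of caveolae and endocytosis were higher in 19 of 19 rows, from Ap2a1 (0.73) to the scavenger receptor Cd36 (86.6 against 346 FPKM, 2.0).

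Macrophage genes differed in direction between the lists of resident and of recruited cells. On the Kupffer cell list all 19 rows of 26 genes were higher in label-positive cells, with a median log2 ratio of 1.52. Clec4f, the lectin that marks mouse Kupffer cells, was at 34.2 FPKM in label-negative against 166 in label-positive cells (2.28). Marco, a scavenger receptor for bacteria, was at 4.82 against 32.4 FPKM (2.75), the complement receptor Vsig4 at 13 against 51.9 FPKM (2.0), Cd5l at 20.3 against 86.0 FPKM (2.08) and Timd4, which binds apoptotic cells, at 4.14 against 15.1 FPKM (1.86). Adgre1, encoding F4/80, and Csf1r had no row. The list shares 8 genes with other lists, among them Id3 and Clec1b, which endothelium expresses. On the list of monocytes and monocyte-derived macrophages 22 of 23 rows were lower, with a median of -2.14. Ly6c2, the marker of inflammatory monocytes, was at 131 against 8.80 FPKM (-3.90), Ccr2, their recruitment receptor, at 68.2 against 7.93 FPKM (-3.10), Chil3 at 81.4 against 5.24 FPKM (-3.96) and F13a1 at 37.3 against 2.39 FPKM (-3.96). Lyz2, lysozyme, was the most abundant at 1283 FPKM in label-negative against 289 in label-positive cells. Spp1, encoding osteopontin, which bile duct cells also make, was the exception at 26.0 against 70.1 FPKM.

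Lymphocyte genes were lower in label-positive cells almost throughout. All 32 T cell rows, all 34 B cell rows and 33 of 35 rows of NK cells and innate lymphocytes were lower, with median log2 ratios of -4.84, -4.32 and -4.16. Cd3e, Cd3g and Cd3d, chains of the T cell receptor complex, were at 101, 147 and 56.4 FPKM in label-negative and 3.68, 5.98 and 1.98 FPKM in label-positive cells. The co-receptors Cd4 (31.8 against 2.08 FPKM) and Cd8a (51.6 against 1.24 FPKM), the naive cell receptor Il7r (50.7 against 1.41 FPKM), the checkpoint Ctla4 (40.2 against 1.23 FPKM) and the regulatory factor Foxp3 (2.24 against 0.0768 FPKM) spanned several T cell types. Rora, which other cells also express, had the ratio nearest to 0 on the list, -0.87. Cytotoxic genes were abundant in label-negative cells, with Ccl5 at 575 against 22.3 FPKM, Nkg7 at 254 against 9.71, Gzma at 149 against 4.79 and Prf1 at 30.3 against 0.994. The NK receptor Ncr1 was at 22.2 against 1.12 FPKM, and Ahr (25.8 against 48.2 FPKM), a factor of innate lymphocytes that liver cells also express, was higher. Among B cell genes the receptor chain Cd79a was at 184 against 3.51 FPKM and Ms4a1, encoding CD20, at 67.5 against 1.66 FPKM. Jchain, which joins secreted IgM and IgA, was at 295 against 38.9 FPKM, and Prdm1, the plasma cell regulator, at 6.62 against 3.32 FPKM. Antigen receptor segments added 292 rows, of which 292 were lower in label-positive cells, although reads of near-identical segments cannot be assigned with certainty.

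Signalling genes that blood cells share were lower in label-positive cells as well. Of the 53 rows of haematopoietic kinases and adaptors 52 were lower in label-positive cells, with a median log2 ratio of -3.30. Ptprc, the pan-leukocyte phosphatase CD45, was at 337 FPKM in label-negative against 30.0 in label-positive cells (-3.49), and Coro1a, a leukocyte actin regulator, at 668 against 56.9 FPKM (-3.55). Some genes that macrophages use as well lay nearer to 0. Tyrobp was at 428 against 124 FPKM (-1.79), Spi1, encoding PU.1, at 79.5 against 22.7 FPKM (-1.81) and Fcer1g at 184 against 112 FPKM (-0.71). Vav3 was higher, at 10.8 against 19.1 FPKM.

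Granulocyte, dendritic and mast cell genes were also lower in label-positive cells. Neutrophil genes were lower in 20 of 21 rows with a median of -2.26, S100a8 and S100a9, the subunits of calprotectin, being at 757 and 1147 FPKM in label-negative and 158 and 236 FPKM in label-positive cells. Mpo, myeloperoxidase of early granulocytes, had the smallest ratio of the list at -6.25 (6.18 against 0.0812 FPKM), and Wfdc21 was the exception at 23.1 against 74.0 FPKM. Among dendritic cell genes 17 of 20 rows were lower. Siglech, of plasmacytoid cells, was at 43.8 against 8.69 FPKM, Xcr1, of cross-presenting cells, at 2.23 against 0.632 FPKM, and Cd209a at 23.7 against 3.79 FPKM, while Fscn1 (59.2 against 173 FPKM), Zbtb46 (25.9 against 61.7 FPKM) and Bst2 (170 against 298 FPKM), all of which endothelium also expresses, were higher. Mast cell proteases had some of the smallest ratios, at low levels. Cma1 was at 13.4 against 0.322 FPKM (-5.38), Tpsb2 at 7.96 against 0.158 FPKM (-5.66) and Cpa3 at 8.65 against 0.313 FPKM (-4.79). Kit, the stem cell factor receptor of mast cells and also of liver endothelium near central veins, was higher at 70.6 against 139 FPKM. Platelet genes were lower in 8 of 10 rows, the exceptions Selp and Clec1b being genes of endothelium too, and only 3 erythroid genes had a row.

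Antigen presentation genes were lower in all 22 rows, with a median log2 ratio of -2.44. The class II chains H2-Aa, H2-Ab1 and H2-Eb1 were at 903, 765 and 341 FPKM in label-negative and 159, 124 and 65.4 FPKM in label-positive cells, log2 ratios of -2.5, -2.63 and -2.38. H2-Ob and H2-DMb2, class II chaperone chains prominent in B cells, had smaller ratios, -4.80 and -4.27. The co-stimulators Cd86 (17.8 against 5.02 FPKM), Cd80 (7.57 against 1.56 FPKM) and Cd40 (17.5 against 4.15 FPKM) were lower as well. The class I genes H2-Q6 and H2-Q7 lay nearer to 0 at -0.80 and -1.32, although they are close copies, and H2-K1, H2-D1 and B2m had no row.

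Chemokines went both ways, with 7 of 22 rows higher and 15 lower in label-positive cells. Cxcl10 and Cxcl9, interferon-induced ligands of Cxcr3, were at 74.0 and 12.5 FPKM in label-negative and 407 and 48.6 FPKM in label-positive cells (2.46 and 1.96). Cxcl16 (67.5 against 158 FPKM) and Cxcl1 (58.8 against 153 FPKM) were also higher. Ccl5, Ccl3 (189 against 33.5 FPKM), Ccl4 (155 against 28.6 FPKM), Ccl6 (274 against 53.4 FPKM), Ccl9 (106 against 15.9 FPKM) and Xcl1 (83.8 against 7.28 FPKM), which leukocytes secrete, were lower. Cxcl2, a neutrophil attractant close in sequence to Cxcl1, differed from it in direction at 324 against 114 FPKM. Of 18 receptor rows 16 were lower, Cxcr4 (278 against 22.7 FPKM), Cxcr3 (24.2 against 2.21 FPKM) and Ccr7 among them. The receptors that were higher, Ackr1 (74.9 against 228 FPKM) and Ackr2 (8.46 against 22.3 FPKM), are atypical receptors that bind chemokines without G protein signalling. The atypical receptor Ackr3 was lower, at 10.3 against 5.76 FPKM.

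**Figure D4:**
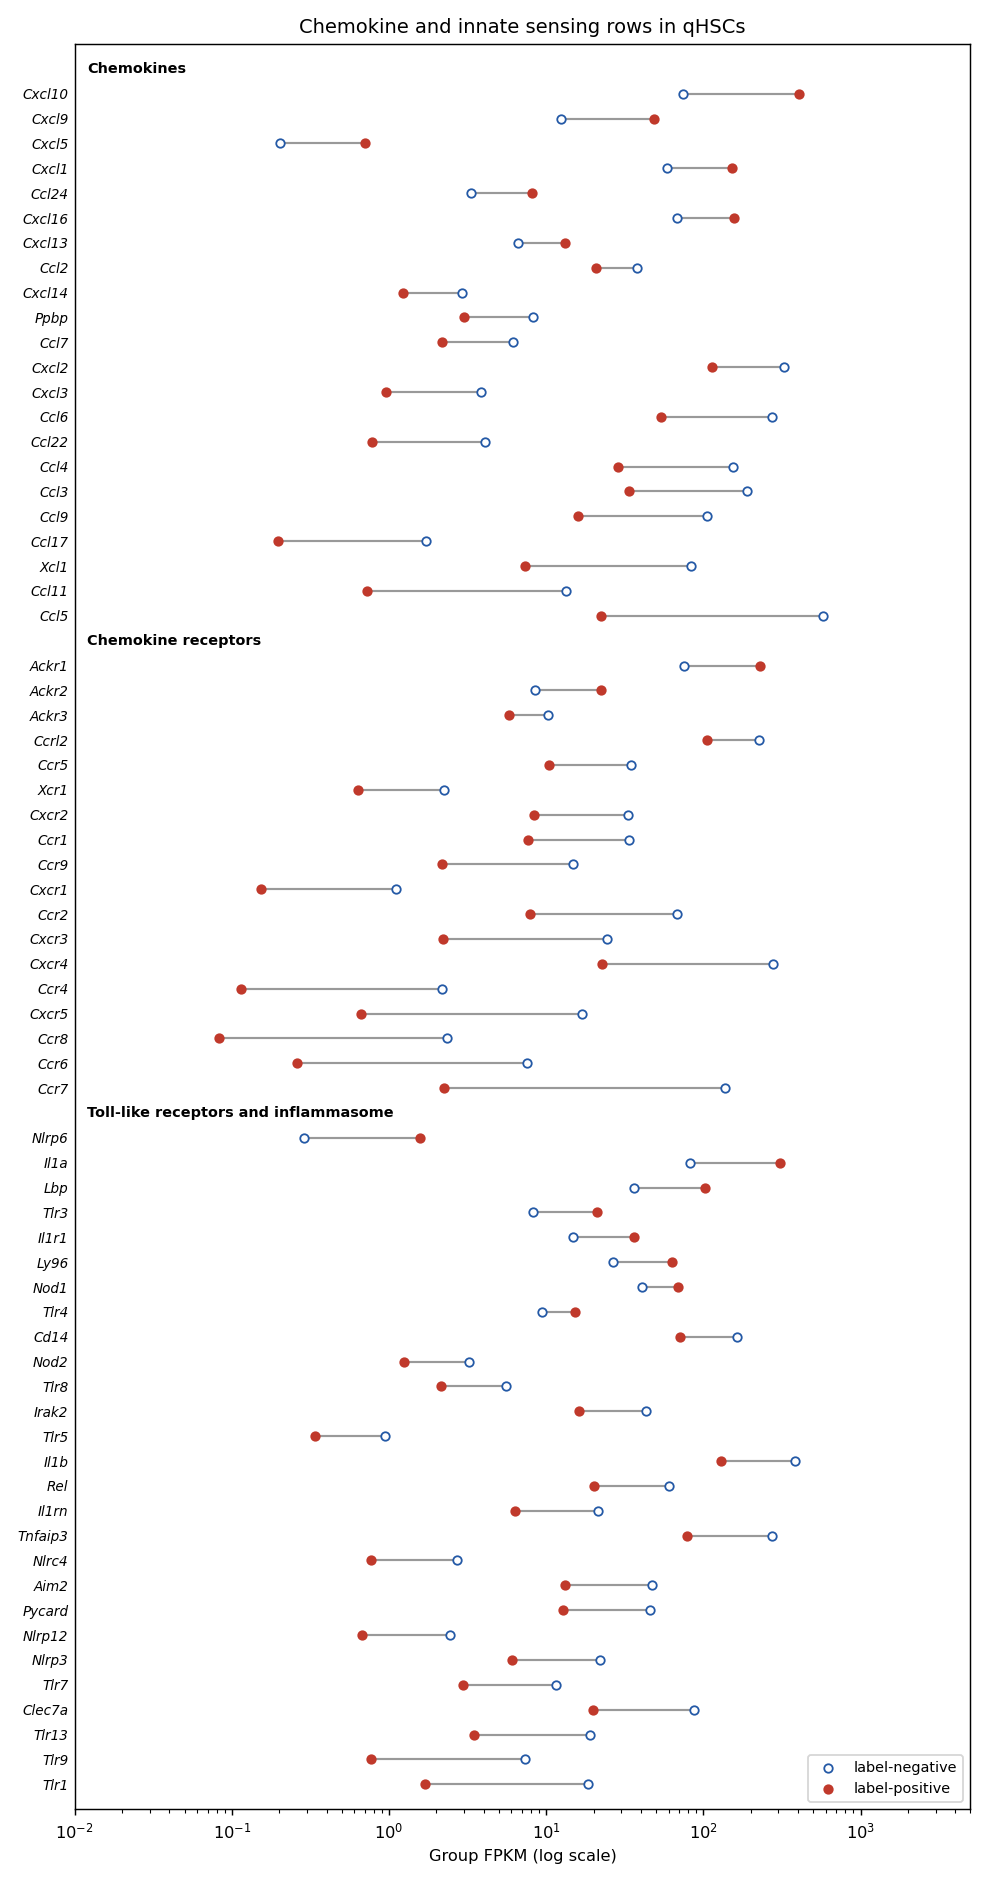
Group FPKM (x axis, log scale) of every row of the lists of chemokines, chemokine receptors and Toll-like receptors with the inflammasome, 1 line per gene ordered by log2 ratio within a list. Open circles are label-negative and filled circles label-positive cells. Cxcl10 runs from 74.0 to 407 FPKM and Ccl5 from 575 to 22.3 FPKM.

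Innate sensors went both ways too, with 8 of 27 rows higher. Tlr3 (8.19 against 21.0 FPKM, label-negative first), the endotoxin partners Ly96 (26.5 against 62.8) and Lbp (36.4 against 102), Il1r1 (14.9 against 36.2) and the cytokine Il1a (82.1 against 308) were higher in label-positive cells, and so was Tlr4 (9.38 against 15.3), with a log2 ratio of 0.71. The inflammasome genes Nlrp3 (22 against 6.07), Pycard (45.7 against 12.8) and Aim2 (46.8 against 13.2), the receptors Tlr1, Tlr7, Tlr9 and Tlr13, and Il1b (382 against 130) were lower. Il1a and Il1b, ligands of the same receptor, thus differed in direction. Of 24 rows of the type I interferon response 14 were higher, led by Ifi44 (1.72), Ifit2 (1.59), Ifit1 (1.53) and Ifit3 (1.48), and 10 were lower, with Ifitm6 (-2.79), Zbp1 (-2.5), Mx1 (-2.33) and Oas3 (-2.30) at the other end. Ifitm2 and Ifitm3 were the most abundant, at 1310 and 608 FPKM in label-positive cells.

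Hepatocyte genes were higher in label-positive cells in 40 of 42 rows, but over a range far wider than that of endothelial genes. Their median log2 ratio was 2.64 with quartiles at 1.58 and 4.09. Alb was at 107 FPKM in label-negative against 302 in label-positive cells (1.5), and the fibrinogen chains Fga, Fgb and Fgg had ratios of 1.19, 1.26 and 1.77. Fabp1, which carries fatty acids in the cytosol, was at 24.1 against 478 FPKM (4.31). The gluconeogenic enzymes Pck1 (0.933 against 20.1 FPKM, 4.43) and Fbp1 (2.78 against 46.9 FPKM, 4.08) and the tyrosine aminotransferase Tat (2.02 against 48.5 FPKM, 4.58) were similar. The central factors Hnf4a and Foxa3 were at 1.10 and 0.164 FPKM in label-negative and 13 and 3.35 FPKM in label-positive cells (3.57 and 4.36). Cyp2e1 (1.52) and Cyp2c29 (1.02) were among the members with small ratios, whereas Cyp7a1, the rate-limiting enzyme of bile acid synthesis, had 3.40 at 1.38 FPKM. Fasn (15.7 against 6.74 FPKM) and Scd1 (55.0 against 24.1 FPKM), lipogenic enzymes that many cells express, were lower. When the genes were grouped by product, after their values had been seen, 20 rows of secreted plasma proteins had a median of 1.56 and 18 rows of amino acid and urea cycle enzymes a median of 4.06. Cytochromes P450 and conjugating enzymes (15 rows, 1.81) and hepatocyte transcription factors (11 rows, 2.52) lay between them. The secreted set reached 3.18 and leaves out some secreted genes, such as Mup20 at 5.05. As the groups were formed on these values, their order is a description only. The secreted set had 1 row in the other direction, Hp, haptoglobin, at 79.8 against 32.1 FPKM, a gene that neutrophils also express.

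Collagen IV and most other basement membrane genes were higher in label-positive cells and most interstitial collagens lower. Of 21 collagen rows 8 were higher and 13 lower in label-positive cells. The higher rows held the collagen IV chains Col4a1 (75.8 against 230 FPKM, label-negative first) and Col4a2 (39.2 against 115), with Col13a1, a transmembrane collagen, at 52.3 against 138. The lower rows held the interstitial chains Col1a1 (7.28 against 2.63), Col1a2 (13.7 against 4.49), Col6a1 (7.20 against 2.52) and Col6a2 (6.58 against 2.14). Of 12 fibrillar and collagen VI genes set apart after their values had been seen 8 had a row, of which Col5a2 (4.29 against 7.45) was the member that was higher. Other basement membrane genes were higher in 15 of 18 rows, including Hspg2, perlecan (83.5 against 234), Nid1, nidogen (41.5 against 105), and Sparc, a collagen-binding protein (358 against 1079). Laminin chains differed in direction. Lama4 (20.3 against 63.5), Lama5 (16.3 against 41.2), Lamb2 (38.6 against 98.2) and Lama3 (2.28 against 6.19), together with Lamc1 at a log2 ratio of 0.68, were higher, while Lama2 (2.75 against 0.456), Lamb1 (5.68 against 1.25) and Lamb3 (29.5 against 1.54) were lower.

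Proteoglycans and other matrix glycoproteins were nearly balanced, with 15 of 29 rows higher in label-positive cells and 14 lower, or 14 and 15 after the centring described below. Igfbp7, Igfbp4 (347 against 975 FPKM, label-negative first) and Bgn, the small proteoglycan biglycan (215 against 561), were the abundant higher rows, and the von Willebrand factor gene Vwf had the largest ratio at 2.09. The lower rows held Fn1, fibronectin (109 against 24.8), Dcn, the cell adhesion protein gene Tgfbi (56.2 against 12.7) and Vcan, versican (18.6 against 1.36), which had the smallest ratio at -3.77.

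Integrins and proteases also went both ways. The collagen and fibronectin receptors Itga1 (23.7 against 56.5 FPKM, label-negative first), Itga5 (16.6 against 36.3), Itga9 (45.2 against 160) and their partner Itgb1 (171 against 296) were higher in label-positive cells, as was Itga8 (15.5 against 55.4), an integrin of stellate cells and smooth muscle. The leukocyte chains Itgal (99.0 against 18.8), Itga4 (43.3 against 3.53), Itgb2 (143 against 21.2) and Itgb7 (111 against 9.33) were lower, and so were Itga2 (2.08 against 0.109) and Itga11 (0.747 against 0.146), a collagen receptor of fibroblasts. Of 34 protease and inhibitor rows 16 were higher. Mmp14, the membrane-bound collagenase, was at 56.8 against 142 FPKM, Timp3, a matrix-bound inhibitor, at 67.0 against 211, and Adamts1, which cleaves proteoglycans, at 69.4 against 225. Mmp9 (58.0 against 10.8) and Mmp8 (17.9 against 2.33), the gelatinase and collagenase of neutrophils, were lower, and so was Mmp2 (5.39 against 1.58), a gelatinase of fibroblasts.

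**Figure D5:**
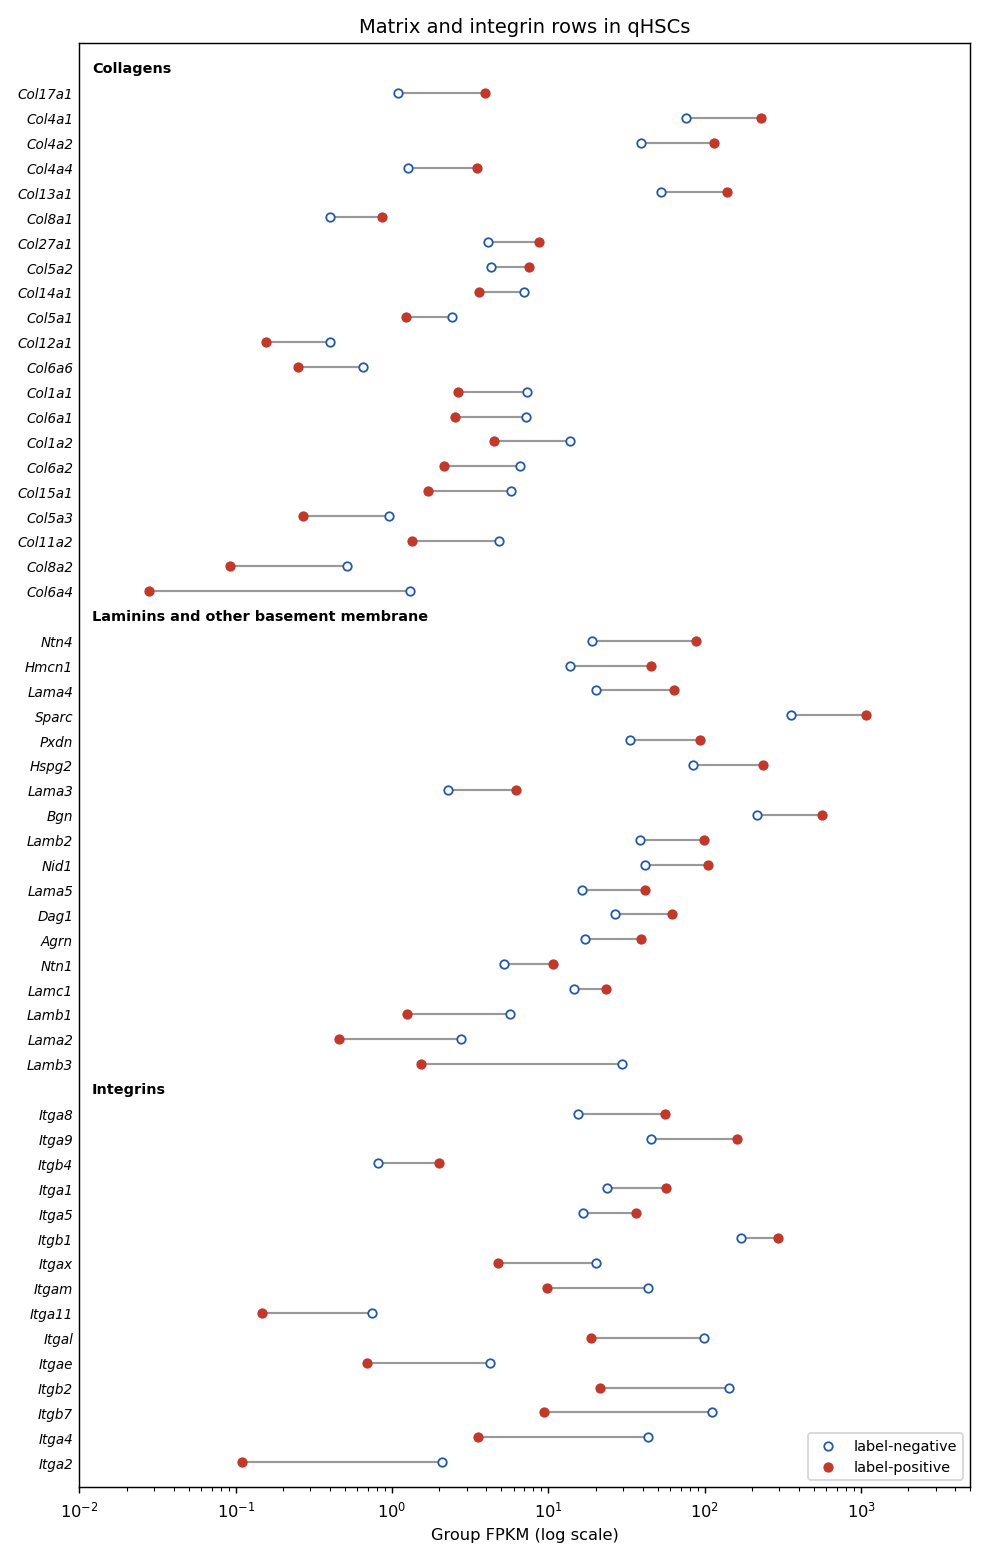
Group FPKM (x axis, log scale) of every row of the lists of collagens, basement membrane genes and integrins, 1 line per gene ordered by log2 ratio within a list. Open circles are label-negative and filled circles label-positive cells. Col4a1 runs from 75.8 to 230 FPKM and Lamb3 from 29.5 to 1.54 FPKM.

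Mesenchymal cell types other than the stellate cell gave contrasting counts. Fibroblast genes of portal tracts and capsule were lower in label-positive cells in 13 of 16 rows, with a median log2 ratio of -1.71. Thy1, also a T cell gene, was at 106 FPKM in label-negative against 9.02 in label-positive cells (-3.56), the fibroblast marker Pi16 at 32.6 against 8.71 (-1.90), Lum at 10.9 against 3.82 (-1.52) and Clec3b at 22.1 against 6.30 (-1.81). Gas6 (87.2 against 204 FPKM), Ly6a (124 against 229 FPKM) and Igfbp5 (10.8 against 18.5 FPKM) were higher. Smooth muscle and pericyte genes were higher in 9 of 12 rows, with Itga8, Cald1 (16.0 against 63.0 FPKM, 1.98), Mcam (15.4 against 46.2 FPKM, 1.59) and Rgs5 (0.750 against 3.29 FPKM, 2.13), but Acta2, Tagln and Myl9 had no row. The other 3 rows were at least 2-fold lower, down to a log2 ratio of -2.15. All 12 rows summed to 331 FPKM in label-negative against 351 in label-positive cells. Mesothelial genes were higher in 10 of 14 rows, mostly at low levels, and 15 of the 29 genes listed had no row. The other 4 rows were at least 2-fold lower in label-positive cells, down to a log2 ratio of -2.37. Msln, mesothelin, was at 1.65 against 4.67 FPKM (1.5) and the uroplakin Upk3b at 2.26 against 5.98 FPKM (1.40), log2 ratios near those of the sinusoidal endothelial list. Podxl and Gata4, the abundant members, are endothelial genes as well. Cholangiocyte genes had 12 rows, 9 of them higher, and the defining Krt7, Krt19 and Epcam had no row, whereas Krt8 and Krt18, shared with hepatocytes and mesothelium, had ratios of 1.52 and 2.0. Of 25 rows of genes of myofibroblast activation 16 were lower, with a median of -0.99, including Vim at 586 against 248 FPKM and Fn1 at 109 against 24.8 FPKM. Ctgf (6.23 against 16.4 FPKM), Cyr61 (31.9 against 81.3 FPKM), Sparc and Loxl2 were higher.

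Genes of cell state differed too. Proliferation genes were lower in label-positive cells in 20 of 23 rows with a median of -1.54, but 33 of the 56 genes listed had no row. Top2a (12.9 against 3.83 FPKM) and Mki67 (4.28 against 1.30 FPKM) were among the lower rows. The exceptions were Ccnd1, cyclin D1 (38.6 against 114 FPKM), and the cell cycle inhibitors Cdkn1c (15.6 against 44.5 FPKM) and Cdkn2a (0.996 against 3.26 FPKM). Immediate early and dissociation genes were mixed, with 8 rows higher and 13 lower. Egr1 (316 against 779 FPKM) and Socs3 (162 against 454 FPKM) were higher, Fos was at 809 against 1329 FPKM with a log2 ratio of 0.72, and Nr4a1 (374 against 71.3 FPKM), Btg1 (303 against 40.2 FPKM) and Klf6 (257 against 96.7 FPKM) were lower. Of 70 ribosomal protein rows 69 were lower, with a median of -1.03, and Rps27l, a p53-regulated paralogue, was the exception at 0.97. Ribosomal protein genes have many processed copies, so part of their reads may be shared.

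The directions above rest on the scale of the deposited FPKM. The median log2 ratio of the 3999 rows with at least 1 FPKM in both groups was 0.78, and that of all 5584 rows above 0 in both was 0.64. Because the table holds called genes, with no row between -0.5 and 0.5, this median moves with the number of rows on each side (58.2% higher in label-positive cells at that limit) and does not measure a shift of genes that did not differ. Subtracting 0.78 shows only how far the counts rest on the scale. After it, all 36 sinusoidal endothelial and all 19 Kupffer cell rows were still above 0, 326 rows of the table turned sign, and 44.7% of rows were higher in label-positive cells. Only 8 rows covered the 59 oxidative phosphorylation genes listed, all higher in label-positive cells with a median of 0.69. After centring 7 of these rows were below 0, and the Notch list became 8 against 8.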

How the data were processed

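RNA from 6 qHSC samples, 3 label-positive and 3 label-negative, was sequenced by the authors on an Illumina HiSeq. According to the methods reads were mapped with bowtie 2 and compared with Cuffdiff2 at an adjusted p-value of 0.05. The submitters' processing notes also name TopHat2 2.0.3, Cufflinks 2.0.1, DESeq2 and the builds mm9 and mm10, without a role. The authors deposited 1 FPKM per group and called gene, with the 3 samples combined. Their fold change, p-value and q-value columns were not used, and no column of values per sample was left unused (0). FPKM is normalised to the mapped reads of each library, so a few abundant transcripts can shift all other values.

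The log2 ratio of FPKM was computed without a pseudocount with Python 3.11.15, pandas 2.3.3 and numpy 2.4.6, with figures made in matplotlib 3.10.9. The calculation was tested on simulated data. A test with limma had been planned for values per sample and could not be run on group values. As neither counts nor replicates were used, depth and error are unknown. Whether reads were counted by strand is not given in the sources used here. Biotypes came from GENCODE vM21 by Ensembl identifier, and 29 rows had no entry there. Genes were matched to 44 lists by symbol, with older symbols resolved through RefSeq.

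Named genes are the 10 rows with the largest and the 10 with the smallest log2 ratio at 10 FPKM or more in the higher group, the 10 most abundant rows of each group, both without antigen receptor segments, predicted genes and pseudogenes, and in each list up to 4 abundant members in each direction, the extremes, the exceptions and the defining markers. Further list members were named after their values were seen. The comparison and the lists were chosen with earlier results of these data known.

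Alternatives were a pseudocount of 1 (also 0.1 for named genes), a minimum of 1 FPKM in the higher group or in both, rows naming 1 gene only, centring on the median, and promoter windows without the bases after the start. Some genes that the naming rule or the lists hold are counted in the summaries but are not reported here by name.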

Additional observations from a re-analysis of the deposited data

How the results depend on the processing

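No paired analysis was possible because the deposited values are 1 per group, although both fractions came from the same animals, and for the same reason no replicate could be left out. A pseudocount of 1 cannot change the number of rows higher in each group, as it leaves the sign of every ratio. Every row names 1 gene, so the setting with rows naming 1 gene only removed nothing. Neither setting therefore tests these counts. Requiring 1 FPKM in both groups left 1673 rows higher in label-negative cells and 1335 at least 2-fold higher there, as that limit removes rows near 0 in label-positive cells. Centring on the median log2 ratio left 505 rows at least 2-fold higher in label-positive and 2711 in label-negative cells. The median of 3 lists changed sign after centring: quiescent stellate cell to -0.76, proteoglycans and matrix glycoproteins to -0.0060 and oxidative phosphorylation to -0.096. No list median changed sign under the other settings, but with 1 FPKM in both groups the stellate cell median went from 0.03 to 1.04 and that of matrix proteases and inhibitors from -0.88 to -0.029, and with a pseudocount of 1 that of collagens went from -1.36 to -0.47. A pseudocount of 1 moved the log2 ratio of 13 of 38 named genes by more than 1.5-fold, and it cannot change their sign. Motif shares over the 3 sets of all promoters and rows at least 2-fold higher in either group stayed within 1.5-fold in the shorter window. The table holds called genes only, so a list's count describes its called members.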

Other observations

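Plasma cascades were largely higher in label-positive cells. Complement genes were higher in 22 of 26 rows with a median log2 ratio of 1.28. The terminal components C8a, C9 and Hc, the gene of C5, had ratios of 3.39, 2.93 and 2.14 and the lectins Mbl1 and Mbl2 2.98 and 2.37. The C1q chains C1qa, C1qb and C1qc, made by macrophages, had ratios between 0.94 and 1.26, and the membrane regulators Cd55 (263 against 546 FPKM, label-negative first) and Cd59a (32.6 against 90.5) were higher too. C7 (11.5 against 2.03), Itgam, Cr2 and C5ar1 (44.0 against 15.8) were lower, while C5ar2, the other receptor for C5a, was higher (17.2 against 41.5).

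Coagulation genes were higher in 20 of 26 rows. The endothelial anticoagulants Tfpi (79.7 against 231 FPKM), Pros1 (88.9 against 235) and Thbd (38.9 against 75.9) and the clotting factor F8 (89.7 against 227), which sinusoidal endothelium supplies, were abundant. F13a1, F10 (7.68 against 3.61), F2rl1 (4.21 against 0.592), Plaur (88.2 against 24.0) and Plat (3.78 against 2.07) were lower.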
